A study of Homo sapiens with 5 samples.

Results

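Messenger RNA of 10 neuronal cytoskeleton genes was followed in the human embryonic stem cell line H9 after editing of NUDT21, the gene of the polyadenylation factor CFIm25. The genes were MAP2, MAP1A, MAP1B, MAPT, TUBB3, DCX, STMN2, NEFL, NEFM and INA, found by symbol as 10 of the 33857 genes in the deposited table of poly(A+) RNA sequencing. MAP2 was picked because a large rise between the same groups was already known, so its difference is described without a test. The other 9 were taken for their function as neuronal microtubule proteins and neurofilaments, with results of these data known. All 10 genes passed the filter on low values, which kept 19232 genes, but STMN2 passed it only through the CFIm25-m samples, where it is higher.

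The study set 2 mock control samples against 3 CFIm25-m samples, all grown undifferentiated in mTeSR medium on Matrigel. By the study's account, the mock controls were clones transfected with an empty CRISPR/Cas9 vector. The labels call them control KO, and their columns in the table carry only the name of the H9 line, so they were matched as the 2 columns that do not name CFIm25. The CFIm25-m samples, labelled CFIm25 KO, were 3 single-cell clones made with separate guide RNAs near the start codon, which kept a low amount of CFIm25 with short N-terminal deletions. The spread between CFIm25-m samples includes differences between clones, and no repeated culture of a clone was given.

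Microtubules are hollow filaments of alpha- and beta-tubulin that carry transport in dendrites and axons. Proteins that bind along their sides set how stable and how closely bundled they are. MAP2 is the side-binding protein of dendrites, tau (MAPT) and MAP1B are best known in axons, and MAP1A belongs to mature neurons. TUBB3 is the neuronal beta-tubulin, doublecortin (DCX) stabilizes microtubules in migrating young neurons, and stathmin-2 (STMN2) binds free tubulin and favours microtubule disassembly in growing axons. Neurofilaments (NEFL, NEFM) and alpha-internexin (INA) build the neuron's intermediate filaments. Outside neurons, many neuronal genes are kept down by the repressor REST.

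RefSeq promoter sequences (build GRCh38.p14) were at hand for 6 of the 10 genes, with 13 start sites among them. Stretches of 150 bases before 4 of those starts are printed, because MAP2 and DCX are the genes with the largest rise and fall and INA is a strongly expressed gene whose difference did not pass the test. Each is written 5′ to 3′ on the gene's strand, with every CG dinucleotide in capitals, and each lies upstream of its start outside exons of these genes. The first MAP2 stretch is chr2:209579165-209579314 (plus strand), which ends 17 bases before the start at 209579332. The second is chr2:209661315-209661464, which ends 31 bases before the start at 209661496. The DCX stretch is chrX:111411147-111411296 (minus strand), and the INA stretch is chr10:103276988-103277137 (plus strand). The MAP2 and DCX stretches lie inside the deposited spans of their genes, and the INA stretch lies before the deposited start of INA. The printed MAP2 starts lie 155274 and 237438 bases downstream of the deposited 5′ end of MAP2, which no window covers. The printed DCX start lies 1283 bases downstream of that of DCX. The stretches are therefore not at like places in their genes, which limits any comparison of their letters. The DCX stretch ends in a run of t and c followed by ag, a form also seen where introns end. Whether it acts as a promoter was not tested.
MAP2 first start: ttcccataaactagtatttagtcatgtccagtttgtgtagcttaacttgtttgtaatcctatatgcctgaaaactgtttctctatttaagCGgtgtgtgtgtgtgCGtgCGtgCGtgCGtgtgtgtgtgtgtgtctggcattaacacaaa
MAP2 second start: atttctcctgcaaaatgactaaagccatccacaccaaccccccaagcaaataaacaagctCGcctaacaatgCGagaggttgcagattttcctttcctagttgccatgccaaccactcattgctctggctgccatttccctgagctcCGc
DCX: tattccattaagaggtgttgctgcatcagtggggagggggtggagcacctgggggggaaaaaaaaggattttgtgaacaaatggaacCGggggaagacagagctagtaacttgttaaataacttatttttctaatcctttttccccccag
INA: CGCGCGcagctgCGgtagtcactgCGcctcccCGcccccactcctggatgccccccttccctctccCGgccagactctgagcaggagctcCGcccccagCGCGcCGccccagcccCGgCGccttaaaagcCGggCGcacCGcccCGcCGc

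The MAP2 and DCX stretches held few CG dinucleotides, 5 and 3 before the MAP2 starts and 1 before the DCX start, against 18 before INA. Their GC content was 41.3% and 49.3% for MAP2, 44.7% for DCX and 77.3% for INA. Over the full 300-base windows, which include 50 bases after the start, the 3 MAP2 starts held 5, 7 and 10 CG dinucleotides and the 3 DCX starts held 2, 2 and 4. The median over all 35116 RefSeq promoters was 14. The 2 MAP1B starts held 31 and 12, the 2 MAP1A starts 23 and 10, the 2 TUBB3 starts 9 and 47, and the INA start 35. The full RE1 motif, the site that REST binds, was found in 0 of the 13 windows on either strand and in 24 of all promoters (0.0683%). Its left part, searched as AGCACC on both strands, was present in 2 of the 13 windows, before MAP1A and in the printed DCX stretch, and in 15.9% of all promoters. Its right part, searched as GGACAG, was present before TUBB3 and INA and in 20.55% of all promoters. These counts describe the letters only, and which start was used in these cells cannot be read from counts per gene.

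The 10 genes spanned a wide range of levels in mock control cells. On the scale of normalized count per kb of gene length, the mock control mean was 176 for MAP1B, 155 for INA, 68.3 for NEFM, 58.1 for NEFL, 27.2 for DCX, 8.29 for MAP2, 8.0 for TUBB3, 6.38 for MAP1A, 4.53 for MAPT and 1.83 for STMN2. The median of all tested genes was 65.4 and 65.2 in the 2 mock controls, so only MAP1B, INA and NEFM lay above it in mean. MAP2 and TUBB3 could not be ordered, since their 2 mock control values overlapped (8.48 and 8.10 for MAP2, 7.29 and 8.71 for TUBB3). The mock control values of the other neighbours in this order did not overlap. In CFIm25-m cells the top of the order stayed with MAP1B (162 per kb) and INA (140 per kb), and MAP2 stood above DCX in place of below it.

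**Figure D1:**
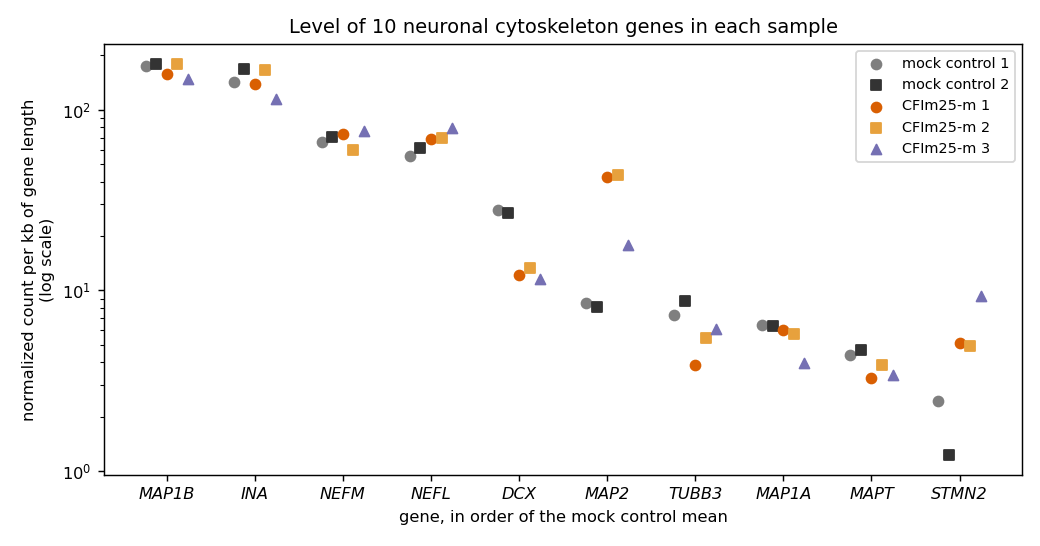
Normalized count per kb of gene length (log scale) of the 10 genes in each of the 5 samples, genes ordered by the mock control mean. The CFIm25-m points of MAP2, STMN2 and NEFL lie above both mock controls, and those of DCX, TUBB3, MAPT and MAP1A lie below both. MAP2 in CFIm25-m 3 (17.9) lies below the other 2 clones (42.5 and 43.6).

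The edited gene was lower in every CFIm25-m sample. The NUDT21 normalized count was 6503 and 6398 in mock control and 4035, 3281 and 3400 in CFIm25-m, which gave -0.86 as the log2 fold change (standard error, SE, 0.11; adjusted p = 0.00431). Total reads ran from 18754108 to 23372391 per sample, and a normalized count of 1 stood for about 1 read. CFIm25-m 3 stood apart from the rest in having the fewest genes listed at 0, 3781 against 4406 to 5246 in the other 4 samples. The 8 stem cell markers were all tested and none was called, with 3 lower at an unadjusted p below 0.05 and 1 (SALL4) called lower by DESeq2 but none by edgeR. Their summed normalized count was 214450 and 218410 in mock control and 188940 to 202220 in CFIm25-m. Of 13 neuronal and neural progenitor markers 9 could be tested and none was called by limma or edgeR, with 1 (ELAVL4) higher at an unadjusted p below 0.05 and called by DESeq2. Their sum was 1927 and 1880 in mock control and 1833 to 1867 in CFIm25-m. The proneural factors NEUROD1 and NEUROG2 had a normalized count of at most 1.80 and 1.15 in any sample. Of 6 mesoderm and endoderm markers only MIXL1 was high enough to test and was not called, with an unadjusted p above 0.05.

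MAP2 (ENSG00000078018, chr2:209424058-209734118, plus strand) had the largest difference of the 10 genes. Its normalized count was 98.0 and 93.6 in mock control, and 491, 504 and 207 in CFIm25-m 1, 2 and 3. All 3 clones were above both mock controls, and CFIm25-m 3 was the lowest clone. The mock control mean of 95.8 ± 3.08 (SD, n = 2) compared with 401 ± 168 (SD, n = 3) in the clones, a ratio of means of 4.18. The log2 fold change, a difference between mean logs that weighs the low clone more, was 1.94. By clone, the level was 5.13, 5.26 and 2.16 times the mock control mean. Per kb of gene length the mean level went from 8.29 to 34.7, below the median of tested genes in both groups.

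The clones disagreed on how far MAP2 was raised. Its highest and lowest clone lay 1.28 apart on the log2 scale, a range wider than that of 94.2% of tested genes, while the 2 mock controls lay 0.065 apart. CFIm25-m 3 minus the mean of the other 2 clones was -1.26 on the log2 scale, and only 148 tested genes (0.770%) dropped further in that clone. Without CFIm25-m 3 the log2 fold change was 2.37, and without CFIm25-m 1 or 2 it was 1.74 or 1.72. MAP2 made up 1.71% and 1.52% of the summed per-kb level of the 10 genes in mock control and 8.30%, 7.91% and 3.81% in CFIm25-m 1, 2 and 3. The sum of the other 9 genes was 486 and 525 per kb in mock control and 470, 508 and 451 per kb in CFIm25-m, and the groups overlapped both for this sum and for the sum of all 10. More cells with MAP2 transcript and more transcript in each cell cannot be told apart in these bulk samples, and this holds for every gene described here.

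The other microtubule side-binding proteins did not follow MAP2. MAP1B (ENSG00000131711, chr5:72107234-72209570) was the most abundant of the 10 genes per kb, with normalized counts of 2207 and 2250 in mock control and 1990, 2269 and 1861 in CFIm25-m. The groups overlapped, and the log2 fold change of -0.13 (SE 0.10, adjusted p = 0.581) did not pass the test. An antisense transcript, AC093218.1, overlaps the first 767 bases of MAP1B, and its normalized count was 51.9 and 66.6 in mock control and 95.2, 83.7 and 120 in CFIm25-m (log2 fold change 0.74, adjusted p = 0.179). Whether reads were counted by strand was not given in the sources used here, so reads in the overlap cannot be assigned to either gene with certainty.

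MAP1A (ENSG00000166963, chr15:43510958-43531620) had normalized counts of 68.0 and 67.6 in mock control and 64.1, 61.2 and 42.3 in CFIm25-m. Every clone lay below both mock controls, the lowest being CFIm25-m 3, and the log2 fold change was -0.30 (SE 0.26, adjusted p = 0.618). MAPT (ENSG00000186868, chr17:45894382-46028334), the gene of tau, was listed at 65.7 and 69.5 in mock control and at 49.1, 57.6 and 51.0 in CFIm25-m. Its groups did not overlap either, with a log2 fold change of -0.36 (SE 0.23, adjusted p = 0.495). Neither gene passed the test, and the 95% interval of the log2 fold change was -0.87 to 0.28 for MAP1A and -0.87 to 0.15 for MAPT. MAP2 thus stood alone among these 4 side-binding proteins in the direction of its mean difference. A list of 10 further genes held the side-binding proteins MAP4, MAP6, MAP7, MAP9 and relatives, with MAP1LC3A and MAP1LC3B. All were tested and none was called, with 1 lower and 1 higher at an unadjusted p below 0.05. Their log2 fold changes ran from -0.32 (MAP1S) to 0.32 (MAP7D2).

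DCX (ENSG00000077279, chrX:111293779-111412429, minus strand) moved the opposite way. The normalized count was 282 and 273 in mock control and 124, 135 and 118 in CFIm25-m. The 3 clones lay close together and well below both controls, with means of 278 ± 6.56 (SD, n = 2) and 126 ± 8.48 (SD, n = 3). The level fell to 0.453 of the mock control mean, a log2 fold change of -1.14 (SE 0.15, 95% interval -1.48 to -0.79, adjusted p = 0.0064). The clones differed from the mock controls by -1.15, -1.03 and -1.22 on the log2 scale, a range of 0.19 against a median of 0.36 over all tested genes. Within each sample, the per-kb level of MAP2 was 0.306 and 0.303 of that of DCX in mock control, and 3.49, 3.30 and 1.54 times that of DCX in CFIm25-m 1, 2 and 3. The call for DCX was lost when mock control 1 (adjusted p = 0.142) or mock control 2 (adjusted p = 0.116) was left out, with log2 fold changes of -1.11 and -1.16.

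Genes of the same family did not share the fall of DCX. Of its relatives DCLK1, DCLK2, DCLK3 and DCDC2, which carry the same tubulin-binding domain, all 4 were tested and none was called, with none at an unadjusted p below 0.05 and log2 fold changes from -0.26 to 0.64. The nearest tested genes on the chromosome were not called in this test. On either side of DCX these were CAPN6 (log2 fold change -0.28, adjusted p = 0.50) and SERTM2 (0.33, adjusted p = 0.511). On either side of MAP2 they were PTH2R, 569554 bases away (-1.21, adjusted p = 0.0915), and UNC80, 37874 bases away (0.18, adjusted p = 0.758). PTH2R was listed at 53.0 and 38.6 in mock control and at 19.0, 18.9 and 19.2 in CFIm25-m, the opposite direction to MAP2.

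TUBB3 (ENSG00000258947, chr16:89921392-89938761), often used as a marker of neurons, was low throughout. The normalized count was 32.3 and 38.6 in mock control and 17.0, 24.3 and 26.9 in CFIm25-m. All 3 clones were below both mock controls, but with 17 to 40 reads per sample the log2 fold change of -0.64 (SE 0.33, 95% interval -1.37 to 0.10, adjusted p = 0.40) did not pass the test. Most other tubulins were more abundant per kb in mock control, but TUBB1 (2.34) and TUBA8 (0.398) lay below TUBB3. The gene TUBB had a mean of 13222 per kb in mock control against 8.0 per kb for TUBB3.

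Among 13 other tubulins tested, TUBB2A was lower (log2 fold change -0.70, adjusted p = 0.0089), and none was called higher. At an unadjusted p below 0.05, 5 were lower (TUBA1C, TUBB2A, TUBB2B, TUBB4A and TUBB4B) and none higher. No overlap between groups was seen for 8 of the 13 (61.5%), against 36.8% of all tested genes. The 1 call was 7.69% of the 13, against 1.88% of all tested genes, and these counts describe the list only. TUBB2A was listed at 4036 and 4395 in mock control and at 2489, 2441 and 2874 in CFIm25-m. Its close copy TUBB2B was at 7030 and 7330 in mock control and 5559, 6423 and 4874 in CFIm25-m (log2 fold change -0.36, adjusted p = 0.187). Reads of these paralogues may be split between them in counting, and the sum of both was 11066 and 11724 in mock control and 8047, 8863 and 7748 in CFIm25-m. The summed normalized count of the tubulins was 95218 and 95274 in mock control and 80947, 88341 and 69182 in CFIm25-m, lowest in CFIm25-m 3. The call for TUBB2A was lost without CFIm25-m 1 (adjusted p = 0.0575), mock control 1 (0.113) or mock control 2 (0.189).

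STMN2 (ENSG00000104435, chr8:79610814-79666175) was the scarcest of the 10 genes per kb in mock control, and the only one besides MAP2 whose mean was more than 1.5 times higher in CFIm25-m. It had 5 and 3 reads in mock control and 12, 13 and 23 reads in CFIm25-m, or normalized counts of 5.76 and 2.90 against 12.03, 11.7 and 22.1. Every clone lay above both controls, with the highest value in CFIm25-m 3, the clone in which MAP2 was lowest. Pooled over samples, 48 reads against 8 gave a ratio of 3.63, which leaves out the spread between clones. Since the gene passed the filter only through its CFIm25-m values, a rise was favoured by its being tested at all, and the ratio is a description. The log2 fold change of 1.61 (SE 0.50, adjusted p = 0.162) did not pass the test over all genes. Among the other stathmins, STMN3 was lower, at 1256 and 1337 in mock control and 961, 918 and 870 in CFIm25-m (log2 fold change -0.50, adjusted p = 0.0337). STMN1, the widely expressed stathmin, differed by -0.0021 in log2 (adjusted p = 0.994), and STMN4 was too low to test. STMN3 lost its call when any sample other than CFIm25-m 3 was left out, with adjusted p from 0.0749 to 0.495.

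The neurofilament genes NEFL and NEFM lie on chromosome 8 on opposite strands, 31856 bases apart. NEFL (ENSG00000277586, chr8:24950955-24957110), the light chain, was at 239 and 264 in mock control and 298, 302 and 342 in CFIm25-m, with no overlap between groups. Its log2 fold change was 0.32 (SE 0.14, adjusted p = 0.311), which did not pass the test over all genes. NEFM (ENSG00000104722, chr8:24913012-24919098), the medium chain, was at 290 and 308 in mock control and 322, 262 and 332 in CFIm25-m. The groups of NEFM overlapped, with a log2 fold change of 0.02 (SE 0.15, 95% interval -0.30 to 0.35, adjusted p = 0.961). The antisense gene AF106564.1, which overlaps NEFM, differed by -0.01 in log2 (adjusted p = 0.992). INA (ENSG00000148798, chr10:103277163-103290351) was at 458 and 543 in mock control and 450, 534 and 370 in CFIm25-m, again with overlap (log2 fold change -0.16, SE 0.16, adjusted p = 0.676).

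Filament genes outside the 10 gave no call either. Of 5 tested (NEFH, NES, VIM, SYNM and GFAP), none was called, with 1 higher and none lower at an unadjusted p below 0.05. VIM, the vimentin of mesenchymal and stem cells, was the one with the lower p, at 1610 and 1552 in mock control and 2247, 2569 and 1586 in CFIm25-m (log2 fold change 0.40, adjusted p = 0.303). Its CFIm25-m 3 value lay between the mock controls while the other 2 clones lay above, the clone order that MAP2 showed. NES, the nestin of neural progenitors, was at 12428 and 13158 in mock control and 12957, 11702 and 10474 in CFIm25-m (log2 fold change -0.13, adjusted p = 0.611).

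**Figure D2:**
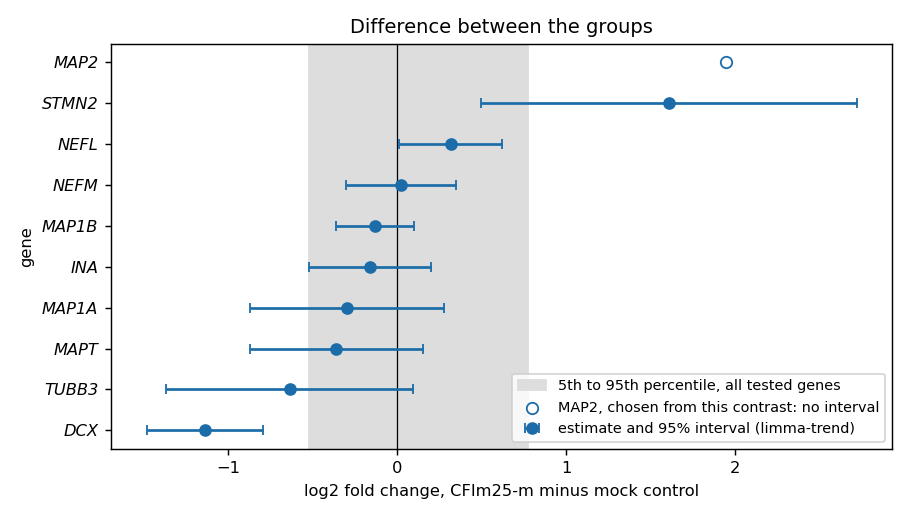
Log2 fold change (CFIm25-m minus mock control) of the 10 genes, with 95% intervals from limma for all but MAP2 (open point), which was chosen from this contrast, over a grey band from the 5th to the 95th percentile of all tested genes (-0.52 to 0.78). MAP2 (1.94) and STMN2 (1.61) lie above the band, DCX (-1.14) and TUBB3 (-0.64) lie below it, and the other 6 lie inside it. STMN2 passed the filter only through its higher group, so its interval is a description and no support for a rise.

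As a group the 10 genes did not move in a common direction. MAP2 set aside, DCX was called lower and none of the other 8 genes was called by limma, edgeR or DESeq2 (which gave no adjusted p for STMN2), with 2 of them (STMN2 and NEFL) higher at an unadjusted p below 0.05. Over all tested genes 1.88% were called, 0.936% lower and 0.941% higher. In mean, 6 of the 10 genes were lower and 4 higher, and their median log2 fold change was -0.15 against -0.01 over all tested genes. Their median absolute log2 fold change was 0.34 against 0.17. The groups did not overlap for 7 of the 10 genes, MAP2, STMN2 and NEFL upward and MAP1A, MAPT, TUBB3 and DCX downward, while 36.8% of all tested genes had no overlap. Since MAP2 was chosen from this contrast, STMN2 passed the filter through its higher group and the others were chosen with results known, these counts describe the list and support nothing beyond it.

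**Figure D3:**
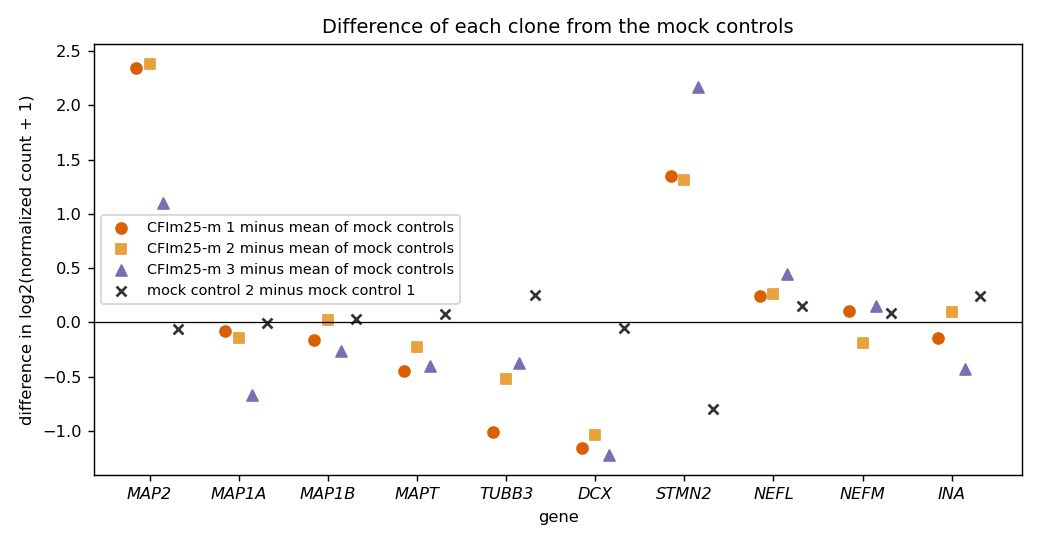
Difference in log2(normalized count + 1) of each CFIm25-m clone from the mock control mean, and of mock control 2 from mock control 1 (crosses), for the 10 genes. The 3 clones of DCX lie within 0.19 of each other, whereas CFIm25-m 3 lies lowest for MAP2 (1.10 against 2.35 and 2.38) and highest for STMN2 (2.17 against 1.34 and 1.31).

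In the wider cytoskeleton 2 genes were called, both lower. A list of 77 further genes had 72 tested members. It held side-binding proteins and relatives, relatives of DCX, stathmins, tubulins and filaments. It also held kinases that phosphorylate tau or MAP2, activators of CDK5, collapsin response mediators, severing and end-binding proteins and kinesins. TUBB2A and STMN3 were called lower and none was called higher, which is 2.78% of the tested genes of the list against 1.88% of all. At an unadjusted p below 0.05, 11 were lower and 3 higher. The share of all tested genes at that unadjusted p is not given here, so these 2 counts describe the list only. Neither edgeR nor DESeq2 called any of them higher, and DESeq2 called TUBB4A lower besides these 2. No side-binding protein, DCX relative, filament, kinase, collapsin response mediator, severing or end-binding protein or kinesin outside the 10 genes was called by limma, edgeR or DESeq2. In mean 45 were lower and 27 higher, with a median log2 fold change of -0.06, and 27 of the 72 (37.5%) had no overlap between groups, close to the 36.8% of all tested genes. When CFIm25-m 3 was left out, 4 were called lower and 3 higher.

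The kinase list had 10 tested genes, including GSK3B, CDK5, its activator CDK5R1 and the MARK kinases. None was called, with 1 lower and 1 higher at an unadjusted p below 0.05. GSK3B, a tau kinase, was at 2520 and 2438 in mock control and 2171, 2014 and 1784 in CFIm25-m (log2 fold change -0.32, adjusted p = 0.18). MAPK10, a JNK kinase enriched in neurons, was at 65.7 and 64.7 in mock control and 105, 93.6 and 85.6 in CFIm25-m (log2 fold change 0.53, adjusted p = 0.264). None of 5 collapsin response mediators was called or had an unadjusted p below 0.05. None of 12 severing and end-binding proteins and none of 11 kinesins was called, with 2 and 1 lower at an unadjusted p below 0.05. The kinesin KIF21A was at 722 and 681 in mock control and 569, 510 and 459 in CFIm25-m (log2 fold change -0.46, adjusted p = 0.107).

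Of REST and its corepressors, which act together on neuronal genes, HDAC1 alone was called, by limma, edgeR and DESeq2 alike. REST itself was at 1709 and 1800 in mock control and 1733, 1600 and 1631 in CFIm25-m, with overlap between groups (log2 fold change -0.08, adjusted p = 0.694). Of the 8 genes on this list HDAC1, a histone deacetylase of several repressor complexes, was called lower, at 4321 and 4472 in mock control and 3308, 3077 and 3038 in CFIm25-m (log2 fold change -0.49, adjusted p = 0.0265). None was called higher. At an unadjusted p below 0.05, 2 were lower, HDAC1 and SIN3A (log2 fold change -0.20, adjusted p = 0.325), and none was higher. The 1 call was 12.5% of the 8, against 1.88% of all tested genes. The HDAC1 call was lost when any sample other than CFIm25-m 3 was left out. The part of HDAC1 in the differences of MAP2 and DCX was not tested.

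Neuronal genes outside the cytoskeleton gave a mixed picture. ELAVL4, the neuronal RNA-binding protein HuD, was at 17.3 and 11.6 in mock control and 43.1, 33.3 and 77.9 in CFIm25-m (log2 fold change 1.70, adjusted p = 0.068). DESeq2 called it higher (adjusted p = 0.0188), and edgeR did not (adjusted p = 0.0907). Over the alternatives its adjusted p ran from 0.00604 with a replicate block to 0.475 without mock control 2. Like STMN2, it was above both controls in every clone and highest in CFIm25-m 3. Its relative ELAVL3 was at 112 and 85.9 in mock control and 62.1, 67.5 and 80.8 in CFIm25-m (log2 fold change -0.49, adjusted p = 0.352). The synaptic genes SYT1, SNAP25 and SYP had log2 fold changes of -0.16, -0.01 and -0.06, and RBFOX3, the gene of the neuronal nuclear antigen NeuN, of -0.06. GAP43, a growth cone protein, had 300 and 318 in mock control and 356, 339 and 350 in CFIm25-m (log2 fold change 0.17, adjusted p = 0.532).

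The genes whose pattern over the 5 samples was most like that of MAP2 were sought among 12329 tested genes with a mean normalized count of at least 100. Likeness was the root-mean-square difference of log2 values after each gene's mean was subtracted. The nearest were SLITRK1 (0.24), FZD2 (0.28), NNAT (0.32), STC1 (0.32) and SOX3 (0.32). Each was higher in all 3 clones than in both controls and lowest among the clones in CFIm25-m 3. Picking genes by likeness to MAP2 favours this, so it is a description only. SLITRK1, a synaptic membrane protein, was at 76.1 and 95.5 in mock control and 429, 375 and 240 in CFIm25-m. SOX3, a transcription factor of neural progenitors, was at 343 and 424 in mock control and 1151, 1385 and 624 in CFIm25-m.

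For DCX the nearest genes were FLNC (0.02), INSYN1 (0.05), PALB2 (0.11), LINC01356 (0.11) and KCNK12 (0.11). FLNC, the actin crosslinker filamin C, was at 1470 and 1401 in mock control and 629, 691 and 618 in CFIm25-m, the same clone order as DCX at a higher count. With 5 samples in 2 groups, any gene with a similar difference between groups comes close by this measure.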

How the data were processed

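Poly(A+) RNA of 2 mock control and 3 CFIm25-m samples was sequenced. The labels' processing notes name HISAT2, featureCounts of the Subread package and DESeq2 with build hg38, and versions, annotation release and strand setting were not given in the sources used here. The deposited values are normalized counts, a signal that the authors made by dividing reads per gene by a size factor for each sample. Every value was a whole multiple of 1 read (100% within 0.01), so reads were recovered for the total reads and the count-based alternatives. The deposited table also held group means, fold changes and p-values of the authors, which were not used.

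A gene entered the test when 2 or more samples reached a normalized count of 10. The test was limma 3.58.1 (R 4.3.3) on log2(normalized count + 1) with a mean-variance trend, over all 5 samples. Adjusted p-values are Benjamini-Hochberg values over all tested genes, and a gene was called when this was below 0.05. Counts at an unadjusted p below 0.05 come without the share over all tested genes and describe the lists only. Fold changes are on that log2 scale and understate low genes. Because counting precision follows depth, genes under about 50 reads, such as STMN2 and TUBB3, are the least certain. Alternatives were other scalings (TMM, CPM), pseudocounts and filters, limma without trend, edgeR 4.0.16, DESeq2 1.42.0, leaving out each sample and a replicate block.

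For this comparison, data were simulated with 200 of 18839 genes changed. On the log2 scale, 85% of changes of 1 and 99% of changes of 2 were recovered, with 16 false among 200 calls. All 200 changed genes were drawn from genes with a mean normalized count above 50, and the rates were not split by expression level. They therefore cannot be applied to low genes such as TUBB3, STMN2 and ELAVL4. A missing call for such a gene is not evidence against a change of that size.

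Level per kb is the normalized count divided by the deposited gene length. The genes and lists were chosen with earlier results of these data known. Named are the 10 genes, NUDT21, list genes past the threshold and others of the lists as examples, genes overlapping a member, the nearest tested genes beside MAP2 and DCX, and the 5 genes of most similar pattern to each. TUBA3C and NEUROG1, also on the lists, were not analysed here. Promoter windows were matched to GRCh37 with GENCODE exons to keep exons out of the printed stretches. Gene coordinates are those deposited.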

Additional observations from a re-analysis of the deposited data

How the results depend on the processing

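Over all genes, 180 were lower and 181 higher. Limma without the trend called 25 lower and 21 higher, DESeq2 280 and 349, and the replicate block 1064 and 1043. Leaving out 1 sample gave 34 to 533 lower and 25 to 536 higher, the highest counts without CFIm25-m 3. Among the 10 genes, MAP2 set aside, DCX was the 1 called lower. This count became 0 without the trend and stayed at 1 with any CFIm25-m sample left out. DCX was lost without the trend (adjusted p = 0.0511) or without either mock control. In the wider list, 2 lower and 0 higher became 0 lower without the trend, 9 lower and 5 higher with the block, and 0 to 4 lower and 0 to 3 higher with a sample left out. NUDT21 kept its direction but was not called without the trend (adjusted p = 0.106) or without mock control 1 (0.0854) or 2 (0.0722). NEFM (log2 fold change 0.0216) reversed to -0.0425 with the block, and ran from -0.0425 (without CFIm25-m 3) to 0.1275 (without CFIm25-m 2) with a sample left out, also below 0 without mock control 1 or CFIm25-m 1 (-0.0202). UNC80 ran from -0.0237 (without mock control 2) to 0.3786 (without mock control 1). The cause of these shifts was not tested.

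The replicate numbers of the groups share only a number, since deviations of same-numbered samples correlated at 0.0072 and 0.018. The block leaves CFIm25-m 3 without a partner, so it carries no weight in that fit. With a mock control left out, the lone control is assumed to vary like the clones. TUBB3 and STMN2 were not tested under a filter of 50, and DESeq2 gave no adjusted p for STMN2, whose 3 to 23 reads limit it most.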
